A study of Rattus norvegicus with 12 samples.

Results

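miR-132 and miR-212 are neighbouring miRNA hairpins, each of which yields a 5p and a 3p arm, so the cluster has 4 mature miRNAs, rno-miR-132-3p, rno-miR-132-5p, rno-miR-212-3p and rno-miR-212-5p (written below without the rat prefix rno). They were taken by name from the deposited tables, which held 583 distinct miRNAs in all. The heart table listed all 4 among its 574 rows. The exosome table listed 3 among its 367 rows, and miR-212-5p was not one of them. The study sequenced small RNA of SD rats in 12 samples, of which 6 carry the label heart and 6 the label serum, and each deposited table sets libraries headed M against libraries headed CK. The design text describes a rat model of myocardial ischemia-reperfusion in which a left coronary artery was tied for 30 min and the heart was then perfused for a week. The labels do not say which samples are CK or M, nor whether either or both were operated on, and they give no age, so the headings are kept as they stand. The exosome table was taken to hold the samples labelled serum, the only other kind of sample.

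miRNAs pair with target mRNAs mainly through their seed, bases 2 to 8, and lower the stability and translation of those mRNAs. miR-132 and miR-212 are cut from a shared primary transcript, which in neurons is switched on by the transcription factor CREB when the cells are active. In mice the pair is known to promote hypertrophic growth of cardiomyocytes and to repress Foxo3, a transcription factor that restrains growth and favours autophagy.

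The mature sequences show which members can share targets. They are from RefSeq (rat build GRCr8, chromosome 10, plus strand), where all 4 members had an entry, and are written 5′ to 3′ with the seed in capitals.
miR-132-3p: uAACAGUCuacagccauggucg
miR-212-3p: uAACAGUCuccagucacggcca
miR-132-5p: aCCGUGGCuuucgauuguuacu
miR-212-5p: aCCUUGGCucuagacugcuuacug
The 3p arms had the same seed, AACAGUC, and no other of the 693 mature rat miRNAs in that table had it. Over their 22 bases the 3p arms were identical at 17 (77.3%), with the first 9 bases alike. Counted from 1 at the 5′ end and written with the miR-132 base first, they differed by A10C, C14U, U17C, U20C and G22A. The 5p arms were identical at 14 of the first 22 bases (63.6%), and their seeds differed by G4U, so miR-132-5p and miR-212-5p had different seeds, each shared with none of the other entries. These differences leave reads of the 4 members distinguishable by sequence, although the sources used here do not say how reads with mismatches were assigned.

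The hairpin of miR-132 shows where its arms lie. The mature arms are in capitals, the 5p arm at bases 23 to 44 and the 3p arm at bases 59 to 80 of 101.
Mir132: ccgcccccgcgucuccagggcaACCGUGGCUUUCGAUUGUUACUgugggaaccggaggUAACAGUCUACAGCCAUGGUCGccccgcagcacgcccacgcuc
In the gene order of the same build, Mir212 and Mir132 were next to each other with no annotated gene between them, flanked by the protein-coding gene Hic1 and by the uncharacterised lncRNA LOC120095261.

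The deposited group means of the members, like those of all but the most abundant miRNAs, could be written as whole reads of 3 libraries, so the reads of the separate libraries are given here, with libraries numbered within a group by increasing depth. Group means above a limit of 2927 to 4968 were not searched, so miR-1-3p, miR-21-5p and other abundant miRNAs have no value by library. A level is reads divided by the size factor of the library. Estimated depth was 4059000 to 6610000 miRNA reads in the heart CK libraries, 2253000 to 5421000 in the heart M libraries, 1696000 to 5328000 in the exosome CK libraries and 1855000 to 1961000 in the exosome M libraries. Among the 277 solved heart miRNAs with a mean of at least 10, heart M library 2 stood apart most, with a median absolute difference of 0.73 on the log2 scale from the CK mean, against 0.48 and 0.37 in M libraries 1 and 3 and 0.18 to 0.25 in the CK libraries. Heart values are therefore also given without it. Heart libraries held all 6 listed cardiac muscle miRNAs, with means of 205731 (CK) and 251909 (M) for miR-1-3p per the authors' deposited table. The exosome table listed 4 of the 6, and miR-208a-3p and miR-208b-3p, encoded within the cardiac myosin genes, were not among its rows.

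In heart, all 4 members had a higher mean in M than in CK, as had 51.4% of all heart miRNAs, and none passed an adjusted p below 0.05, which 0.697% of all heart miRNAs did in the authors' deposited table. The folds ran from 1.77 for miR-132-5p to 3.88 for miR-212-5p in the authors' deposited table. miR-132-3p was the most abundant member, ranked 150 of 574 by its mean, followed by miR-132-5p (208), miR-212-5p (245) and miR-212-3p (362). Whether each sample is a separate animal is not in the labels, so p-values here reflect spread between libraries that could be technical. In a bulk tissue such as heart, fewer cells of a type and less RNA per cell cannot be told apart.

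**Figure D1:**
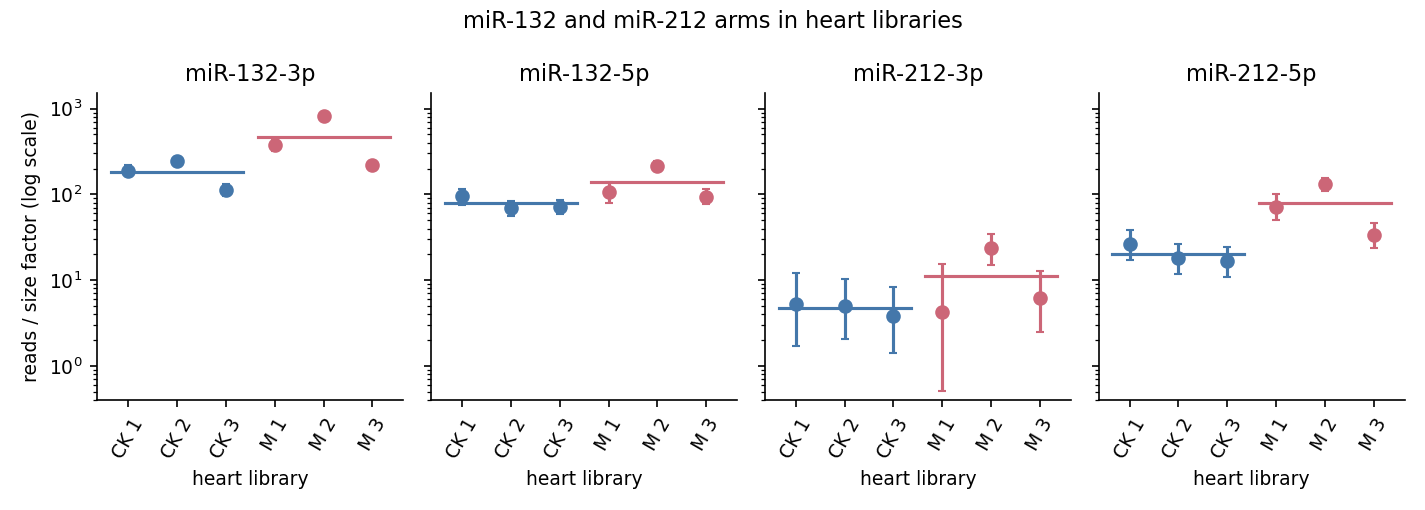
Level of each arm (reads divided by size factor, log axis) in the 3 CK and 3 M heart libraries, with exact 95% Poisson intervals for counting error and a line at each group mean. M library 2 was the highest library for all 4 arms, and the groups were apart in miR-212-5p alone.

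miR-132-3p, the arm best known for its targets in heart and brain, had levels of 189, 247 and 113 in CK libraries 1, 2 and 3, from 180, 341 and 175 reads. In M libraries 1, 2 and 3 its levels were 376, 816 and 219, from 177, 834 and 248 reads. M library 2 was the highest and CK library 3 the lowest, and the groups overlapped because M library 3 lay below CK library 2. The mean was 183 ± 67.2 in CK and 470 ± 310 in M (SD, n = 3 reconstructed libraries each). The fold of 2.57 in the authors' deposited table (p = 0.105, adjusted p = 0.793) was 1.63 without M library 2. In limma on log2(level + 1) the log2 difference was 1.22 ± 0.47 (SE) with an adjusted p of 0.188.

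miR-132-5p, the other arm of the same hairpin, had levels of 94.5, 69.5 and 70.9 in CK libraries 1, 2 and 3, from 90, 96 and 110 reads. Its levels were 106, 214 and 94.4 in M libraries 1, 2 and 3, from 50, 219 and 107 reads. The lowest M level and the highest CK level were within counting error of each other, and M library 2 alone was far above the rest. The mean was 78.3 ± 14.1 in CK and 138 ± 66.1 in M (SD, n = 3 each). The fold was 1.77 in the authors' deposited table (p = 0.0985, adjusted p = 0.793) and 1.28 without M library 2. The log2 difference in limma was 0.73 ± 0.36 (SE), with an adjusted p of 0.262.

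miR-212-5p, whose seed differs from that of miR-132-5p at 1 base, had levels of 26.3, 18.1 and 16.8 in CK libraries 1, 2 and 3, from 25, 25 and 26 reads. Its levels were 72.2, 131 and 33.5 in M libraries 1, 2 and 3, from 34, 134 and 38 reads. Every M library lay above every CK library, as for 16.6% of the 277 solved heart miRNAs with a mean of at least 10. The counting interval of M library 3, 23.7 to 46.0, overlapped that of CK library 1, 17.0 to 38.8. The mean was 20.4 ± 5.14 in CK and 79.0 ± 49.2 in M (SD, n = 3 each). Its fold was 3.88 in the authors' deposited table (p = 0.0299, adjusted p = 0.574) and 2.59 without M library 2. It was the only member at an unadjusted p below 0.05, where 4.18% of all heart miRNAs were higher in M per the authors' deposited table. In limma, where 0.722% of the 277 miRNAs passed, the log2 difference was 1.73 ± 0.49 (SE) and the adjusted p was 0.0969. Without M library 3, in which the level was the lowest of the M group, limma gave a log2 difference of 2.23 and an adjusted p of 0.0404. In that fit 1.44% of the miRNAs tested passed as higher in M. Without M library 2 limma gave 1.26 and an adjusted p of 0.0809. Leaving out M library 1 or any CK library gave limma adjusted p of 0.197 to 0.329. The call thus depended on leaving out the M library with the lowest level.

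miR-212-3p, which has the seed of miR-132-3p, was scarce in heart. It had 5, 7 and 6 reads in CK libraries 1, 2 and 3, and 2, 24 and 7 reads in M libraries 1, 2 and 3. These gave levels of 5.25, 5.06 and 3.87 in CK and of 4.25, 23.5 and 6.18 in M, so M library 1 lay inside the CK range and M library 2 was high on its own. The mean was 4.73 ± 0.75 in CK and 11.3 ± 10.6 in M (SD, n = 3 each). The fold of 2.39 in the authors' deposited table (p = 0.239, adjusted p = 0.972) was 1.10 without M library 2. At a mean of 8.02 it was below the minimum of 10 set for limma, and with no minimum its adjusted p was 0.634.

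M library 2 was the highest of the 6 heart libraries for all 4 members, as for 33.9% of the 277 solved heart miRNAs with a mean of at least 10. It exceeded the mean of M libraries 1 and 3 by 2.75-fold for miR-132-3p, 2.14-fold for miR-132-5p, 2.48-fold for miR-212-5p and 4.51-fold for miR-212-3p. For miR-132-3p, miR-132-5p and miR-212-5p, M library 1 came next, an order that 13.4% of the solved miRNAs had.

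**Figure D2:**
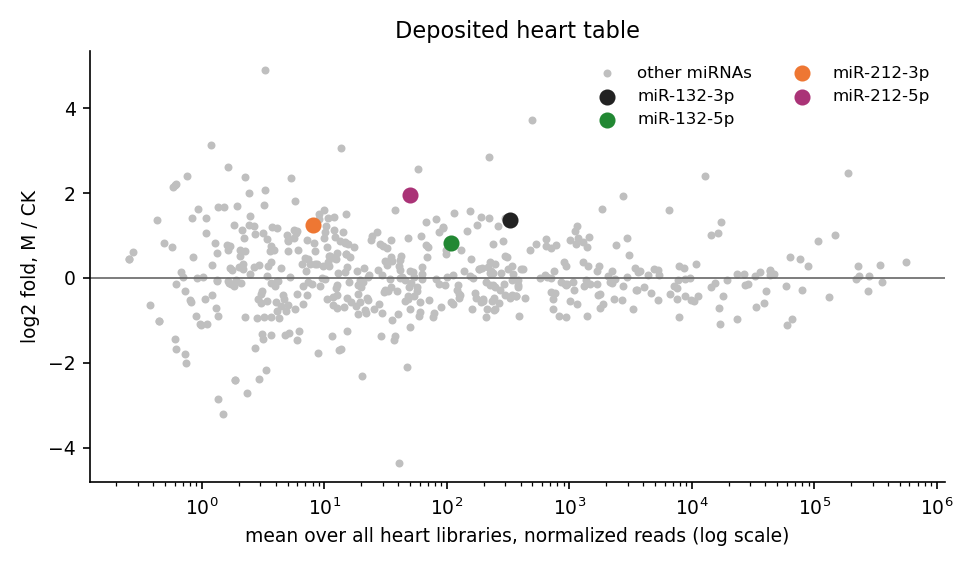
Log2 of the M mean over the CK mean against the mean over all heart libraries (log axis) for 514 of the 574 heart miRNAs of the authors' deposited table, with a mean of 0 set to the floor of 3 reads in each library. The other 60 had both groups at or under the floor and no fold. The 4 members lie above 0, at 0.82 to 1.95, within the spread of other miRNAs of like mean.

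Ratios between members inside a library do not depend on the size factors. They can carry differences in how well each sequence is captured in the library, a part that was not tested. In miR-132 the 3p arm was the more abundant. The 5p arm held 33.3%, 22.0% and 38.6% of miR-132 reads in CK libraries 1, 2 and 3, and 22.0%, 20.8% and 30.1% in M libraries 1, 2 and 3. The groups overlapped, and the log2 ratio of 3p to 5p reads was 1.16 ± 0.59 in CK and 1.64 ± 0.39 in M (SD, n = 3 each, two-sided exact permutation p = 0.30).

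In miR-212 the order of the arms was the opposite. The 5p arm held 83.3%, 78.1% and 81.3% of miR-212 reads in CK libraries 1, 2 and 3 and 94.4%, 84.8% and 84.4% in M libraries 1, 2 and 3. Over all heart libraries this was 282 of 333 reads, or 84.7% (exact Clopper-Pearson 95% interval 80.4% to 88.4%), against 25.6% for the 5p arm of miR-132 (672 of 2627 reads, 23.9% to 27.3%). The lowest 5p share of a library in miR-212, 78.1%, was above the highest in miR-132, 38.6%. The log2 ratio of 3p to 5p reads of miR-212 was -1.92 ± 0.21 in CK and -2.75 ± 0.69 in M, without overlap, a difference of -0.83. The exact permutation p was 0.10, the smallest that 3 against 3 libraries allow, and 0.20 after adjustment over the 4 ratios tested. M library 1 had 2 reads of miR-212-3p, and without it the difference was -0.44. The pooled 5p share was 80.9% in CK (exact 95% interval 71.4% to 88.2%) and 86.2% in M (81.2% to 90.3%). These counting intervals overlapped.

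Comparing the hairpins arm by arm, miR-212 made up little of the 3p reads and more of the 5p reads. Its share of the 3p reads was 2.70%, 2.01% and 3.31% in CK libraries 1, 2 and 3 and 1.12%, 2.80% and 2.75% in M libraries 1, 2 and 3. These shares differed by less than their counting intervals, and the pooled shares were 2.52% in CK and 2.55% in M. The log2 ratio differed between M and CK by -0.31 (exact permutation p = 0.50), and by -0.016 without M library 1.

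Among the 5p reads, miR-212 held 21.7%, 20.7% and 19.1% in CK libraries 1, 2 and 3 and 40.5%, 38.0% and 26.2% in M libraries 1, 2 and 3. All M libraries lay above all CK libraries, and the pooled share was 20.4% in CK (76 of 372 reads) and 35.4% in M (206 of 582 reads). The counting interval of M library 3, 19.3% to 34.2%, overlapped that of each CK library. The log2 ratio of miR-212-5p to miR-132-5p was -1.92 ± 0.12 in CK and -0.91 ± 0.49 in M (SD, n = 3 each), a difference of 1.01. The exact permutation p was 0.10, the smallest this design allows, and 0.20 after adjustment over the 4 ratios tested. Without M library 2 the difference was 0.91.

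**Figure D3:**
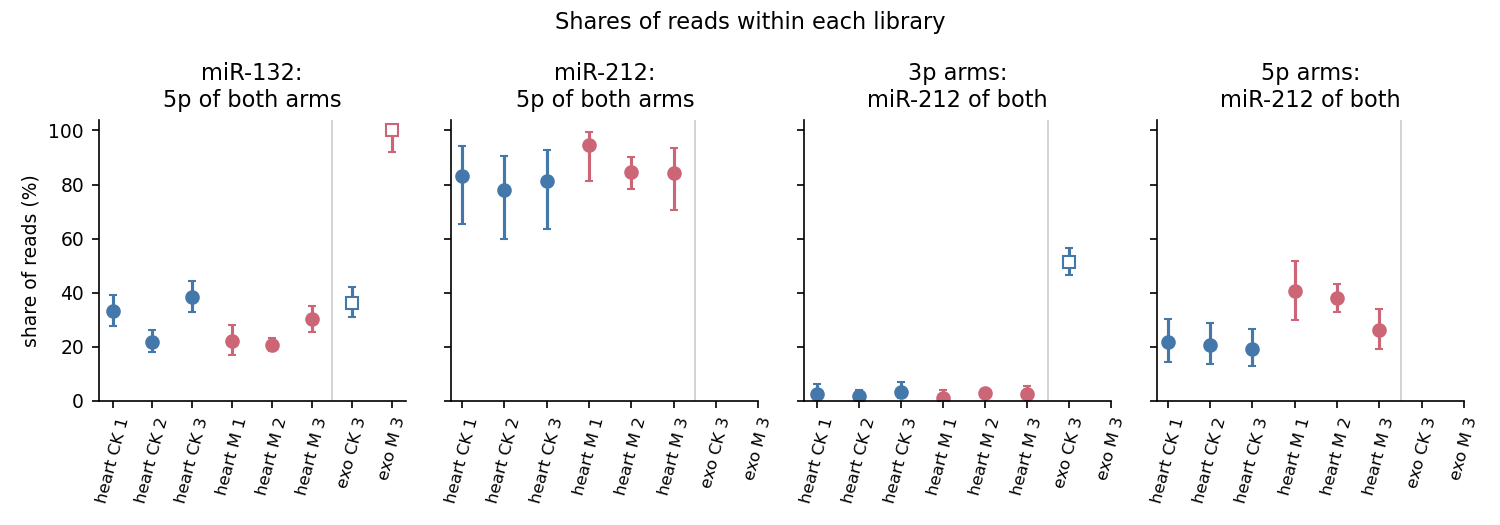
Share of reads (%) within each library, with exact 95% binomial intervals, for the 5p arm of miR-132, the 5p arm of miR-212, miR-212 among the 3p arms and miR-212 among the 5p arms. Filled circles are heart libraries and open squares are libraries of the exosome table ("exo"). miR-212 was 1.12% to 3.31% of 3p reads in heart and 51.5% in exosome CK library 3, and the panels that use miR-212-5p have no exosome point because miR-212-5p was not among the exosome rows.

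The heart miRNAs with the most similar pattern were found by the root mean square difference of centred log2 levels over the 6 heart libraries, among 276 others. The nearest to miR-132-3p was miR-452-5p, at 0.12, with means of 102 (CK) and 276 (M) per the authors' deposited table. miR-222-3p of the vessel wall (0.29), miR-494-3p (0.31), miR-214-3p of mesenchymal cells (0.31) and miR-148a-5p (0.32) followed. The median over all miRNAs compared was 0.96 for miR-132-3p, 0.67 for miR-132-5p and 1.12 for miR-212-5p. For miR-212-5p the nearest were miR-452-5p (0.37), miR-221-3p (0.37), miR-223-5p of myeloid cells (0.39), miR-132-3p (0.42) and miR-221-5p (0.43). Of these miR-221-5p passed the adjusted threshold, with means of 77.2 and 231 (adjusted p = 0.0483, authors' deposited table). For miR-132-5p they were miR-140-5p (0.18), miR-455-5p (0.22), miR-223-3p (0.22), miR-221-3p (0.23) and miR-148a-5p (0.24). The arms of miR-132 were 0.48 apart, miR-132-5p held place 22 among the miRNAs nearest to miR-132-3p, and miR-132-3p held place 59 among those nearest to miR-132-5p. Each miRNA named here, like the members, was highest in M library 2, as were 33.9% of the 277 solved heart miRNAs with a mean of at least 10. They were picked for likeness to members highest there, so the choice itself favoured this.

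**Figure D4:**
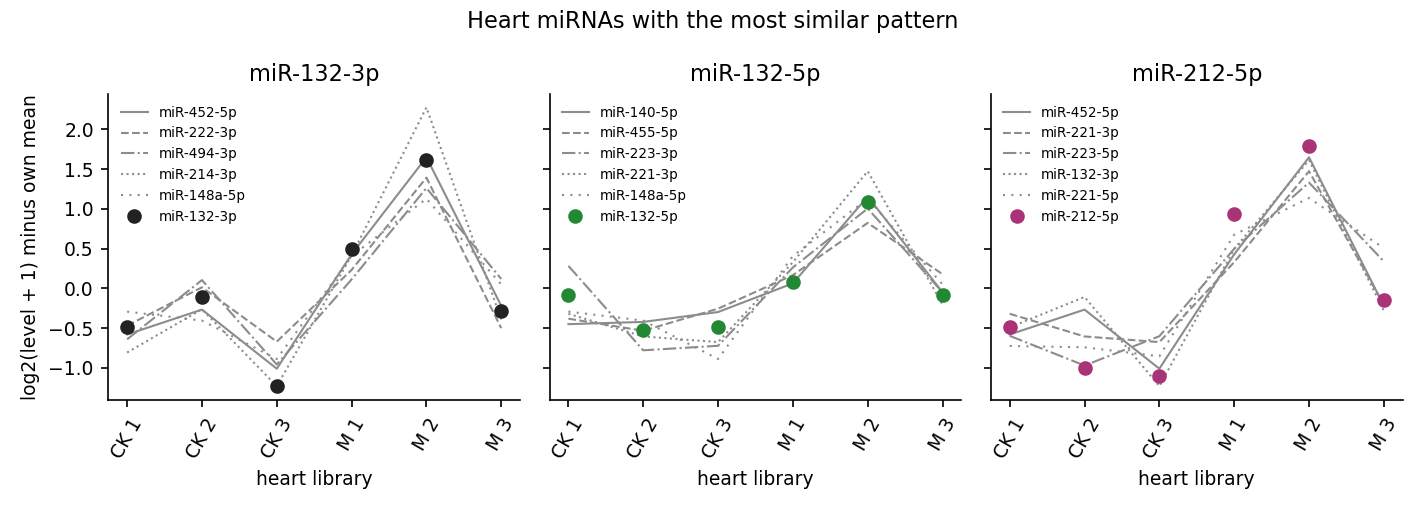
Log2(level + 1) minus its own mean over the 6 heart libraries for miR-132-3p, miR-132-5p and miR-212-5p (points) and the 5 miRNAs nearest to each (grey lines, joined only for legibility). All peak in M library 2, which the choice by likeness to these members favours, and miR-452-5p runs closest to miR-132-3p.

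Marker miRNAs of cell types differed between the same libraries, as far as they could be solved. Most of the abundant markers could not, so most sums below cover a small part of their list. In M library 2 the summed level of the 3 solved of 6 cardiac muscle miRNAs was 855, against 2123 and 2719 in M libraries 1 and 3 and 2719 to 3781 in CK. Those 3, miR-133b-3p, miR-208a-3p and miR-208b-3p, made up 1.06% of the list's CK mean. The unsolved miR-1-3p, its most abundant member, had the higher mean in M given above, and the other 5 of the 6 were lower in M. Among these the unsolved miR-133a-3p had means of 87890 (CK) and 44805 (M), and miR-499-5p of 20710 and 15321, per the authors' deposited table. The 3 solved of 5 endothelial miRNAs summed to 5750 in M library 2, against 2666 and 1775 in M libraries 1 and 3 and 1339 to 1770 in CK. Those 3, miR-221-3p, miR-222-3p and miR-221-5p, made up 0.502% of the list's CK mean. The unsolved miR-126a-3p, the defining endothelial miRNA, had means of 308114 (CK) and 378812 (M), and miR-126a-5p had 3913 and 3242, per the authors' deposited table. The 5 solved of 8 leukocyte miRNAs summed to 2623, against 1891 and 1629, and 837 to 1206 in CK, and made up 4.28% of the list's CK mean. Of the 8, 7 had a higher and 1 a lower mean in M. The lower was the unsolved miR-150-5p, the most abundant of them in CK, with means of 10399 (CK) and 5467 (M). The unsolved miR-146b-5p had 3244 and 9836, per the authors' deposited table. The 3 solved of 7 fibroblast and mesenchymal miRNAs summed to 9149, against 2730 and 1698, and 1171 to 1797 in CK, and made up 1.71% of the list's CK mean. Their median log2 difference from the CK mean was -1.93 in M library 2. Of these, miR-214-3p was higher in M, with means of 1141 (CK) and 4328 (M). The means of miR-29b-3p (275 and 145) and miR-29c-3p (60.9 and 52.8) were lower in M, per the authors' deposited table. The endothelial, leukocyte and fibroblast and mesenchymal sums were, like the members, highest in M library 2, while the cardiac muscle sum was lowest there. The 2 solved of 4 smooth muscle and pericyte miRNAs, 0.319% of the list's CK mean, were also lowest there, at 1020. The red cell sum (3 solved of 5) was 1727 and the liver sum (all 4 solved) 1441 there, neither of them the highest. The part of any of these in the members' levels was not tested. The 11 solved of 12 neural miRNAs, 31.2% of the list's CK mean, summed to 6853, 5394 and 5356 in M libraries 1, 2 and 3 and to 3033 to 3783 in CK, so they were not highest in M library 2. miR-124-3p, the defining neuronal miRNA, was near 0 in heart, with means of 0.21 (CK) and 6.37 (M) per the authors' deposited table, and miR-137-3p and miR-153-3p were at 0 in M. miR-138-5p (5.48 in CK and 3.86 in M) and miR-219a-5p (1.45 and 3.43) were also near 0. The remaining neural miRNAs had higher means. Of the 12, 7 were higher and 5 lower in M, where 51.4% of all heart miRNAs were higher. miR-7a-5p had means of 2024 (CK) and 3861 (M), and miR-218a-5p of 572 and 981 (unadjusted p = 0.0345 and 0.0470, DESeq, authors' deposited table).

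Other miRNAs reported to act on cardiomyocyte growth were taken from 2 lists. Of 15 reported to promote it, 14 were in the heart table, 9 higher and 5 lower in M, and their log2 folds had a median of 0.27 beside 0.032 over the 514 heart miRNAs with a fold. Of 16 reported to restrain it, 5 were higher and 11 lower, with a median of -0.25. None of either list passed the adjusted threshold in the authors' deposited table. Before adjustment, p was below 0.05 for 1 promoting miRNA that was higher, miR-21-5p, and for 3 restraining miRNAs that were lower, miR-133a-3p, miR-133b-3p and miR-29b-3p, per the authors' deposited table, where 3.48% of all heart miRNAs were lower at that level. The members' own median log2 fold was 1.31. The growth lists are thus split in direction in heart, and the members had larger log2 folds than the median of either list. Single promoting miRNAs went further than any member, with log2 folds of 2.48 for miR-21-5p and 2.41 for miR-199a-5p per the authors' deposited table.

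In the exosome table, the 3 listed members were found in few libraries, and none passed an adjusted p below 0.05, which 3.81% of all exosome miRNAs did in the authors' deposited table. miR-132-3p had 196 reads in CK library 3 and 0 in each of the other 5 libraries. miR-212-3p had 208 reads in CK library 3 and 0 in each of the others. miR-132-5p had 112 reads in CK library 3, 44 in M library 3 and 0 in the other 4. So CK library 3, the deepest, held all reads of both 3p arms, and CK and M each had 1 library with miR-132-5p.

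**Figure D5:**
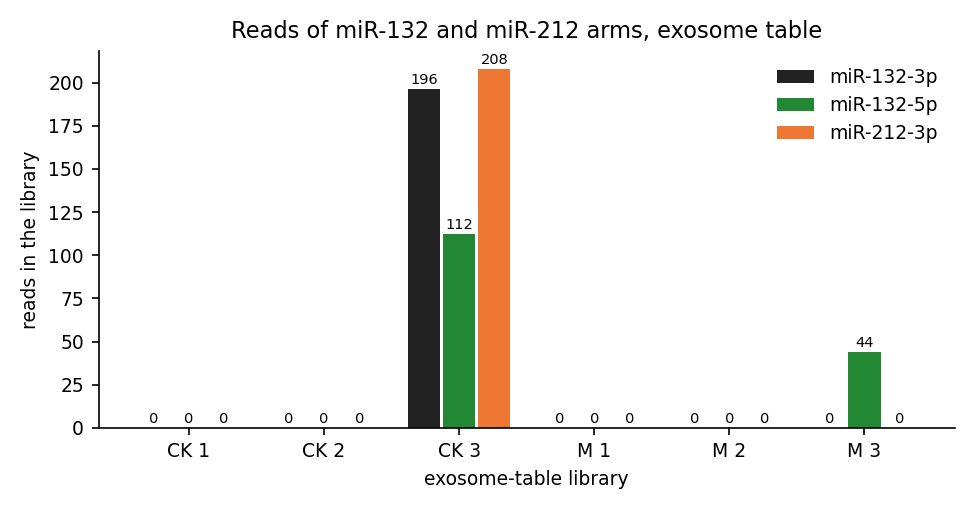
Reads of the 3 listed arms in each library of the exosome table, with the number above each bar. Reads occur in CK library 3 (196, 112 and 208) and, for miR-132-5p, in M library 3 (44).

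The levels in CK library 3 were above what counts of 0 allow in the other libraries. In CK library 3 the levels were 81.5 for miR-132-3p, 46.6 for miR-132-5p and 86.5 for miR-212-3p. A count of 0 allows up to 3 reads, or levels of up to 3.92 and 2.24 in CK libraries 1 and 2 and of up to 3.91, 3.71 and 3.70 in M libraries 1, 2 and 3. These limits cover counting error only, as PCR reads without molecular identifiers are not independent molecules. Reads in a single library were common in this table: 20.8% of the 307 solved miRNAs had them, at a median of 56.5 reads. Reads in CK library 3 alone were seen for 5.21%, 16 miRNAs in all, with 1 to 291 reads and a median of 105. Reads in CK library 3 and M library 3 alone, the pattern of miR-132-5p, were seen for 2.28%.

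The mean of miR-132-3p was 27.2 for CK and 0 for M (adjusted p = 1, DESeq, authors' deposited table), at least 7.2-fold lower in M against a floor of 3 reads in each M library, a mean level of 3.77. For miR-212-3p it was 28.8 for CK and 0 for M (adjusted p = 0.980, DESeq, authors' deposited table), at least 7.64-fold lower on the same floor. Without CK library 3 both groups were at 0 for both 3p arms and there was no fold to give. An M mean of 0 was shared by 19.2% of the solved exosome miRNAs. The means of miR-132-5p were 15.5 for CK and 18.1 for M, a log2 fold of 0.22 (adjusted p = 1, DESeq, authors' deposited table). That log2 fold turned to -0.37 without CK library 1 or 2 and to -2.03 without M library 3, and was 2.55 without CK library 3, with a group at 0 set to the same floor. None of the 3 was at an unadjusted p below 0.05, which 13.9% of all exosome miRNAs were. In limma on the solved reads the log2 differences were -2.12 ± 2.23 for miR-132-3p, -2.15 ± 2.24 for miR-212-3p and 0.072 ± 2.59 for miR-132-5p (SE), with adjusted p of 0.640, 0.640 and 0.989. limma called 0 of the 249 exosome miRNAs tested. The errors were as large as the differences or larger, so no difference was detectable in these libraries.

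The proportions inside CK library 3 of the exosome table differed from those of heart. miR-212-3p was 208 of 404 reads of the 3p arms, or 51.5% (exact 95% interval 46.5% to 56.5%), against 51 of 2006 reads, or 2.54% (1.90% to 3.33%), over the heart libraries. The highest heart library reached 3.31%, with an interval up to 7.08%. The share of the 5p arm in miR-132 was 36.4% (31.0% to 42.0%) in CK library 3, inside the range of the heart libraries. In M library 3 all 44 miR-132 reads were of the 5p arm. miR-212-5p, which held most miR-212 reads in heart, was not among the exosome rows while miR-212-3p was. These ratios rest on 1 exosome library, so there is no replicate check and no test between the tables. The intervals cover counting error only.

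Most heart miRNAs of a level like that of miR-132-3p had reads in more than 1 exosome library. Of 62 other heart miRNAs with a mean within 2-fold of that of miR-132-3p, 53 were in the exosome table, and of the 50 solved there 23 had reads in all 6 libraries and 3 in a single library, as miR-132-3p had. Of the 51 solved miRNAs within 2-fold of miR-132-5p in heart, 23 had reads in all 6 libraries and 6 in a single library. Of the 53 solved miRNAs within 2-fold of miR-212-3p, 6 had reads in all 6 libraries and 20 in a single library. Of 74 miRNAs within 2-fold of miR-212-5p in heart, 62 (83.8%) were in the exosome table. The tables were normalized separately, so levels were not compared between them.

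Marker miRNAs could be followed by library in the exosome table only for their less abundant members, so the lists as a whole cannot be placed there. In CK library 3 the 7 solved of 12 neural miRNAs, which made up 0.936% of the list's CK mean, summed to a level of 76.9, the lowest of the 6 libraries, against 584 to 1758 in the others. The 3 solved of 6 cardiac muscle miRNAs, 11.5% of the CK mean, summed to 330 there, against 280 to 715 in the others. The 3 solved of 7 fibroblast and mesenchymal miRNAs, 3.08% of the CK mean, summed to 2758 there, against 526 to 2219 in the others, and their part in the members' reads was not tested.

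The exosome table as a whole leaned towards CK, with 59.1% of its miRNAs lower and 40.9% higher in M, while 1.36% fell and 2.45% rose past the adjusted threshold, in the authors' deposited table. Of the 11 growth-promoting miRNAs in the exosome table, 9 were lower in M and 2 of these fell, miR-199a-3p (7513 to 1967) and miR-22-3p (34363 to 15100.1), in the authors' deposited table. Of the 16 growth-restraining miRNAs, 9 were higher in M and 3 of these rose, miR-26a-5p, miR-30c-5p and miR-26b-5p, in the authors' deposited table. The median log2 folds were -0.83 and 0.054 for these lists, with means of 0 at the floor, beside -0.35 over the 362 exosome miRNAs with a fold.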

How the data were processed

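Trizol RNA and the NEBNext small RNA kit were used, per the labels' protocols. The submitters' processing notes name Bowtie2 2.2.6, DESeq 1.30.0 and the build mRatBN7.2, without their roles. Per the file headers, the authors deposited for each miRNA its mean normalized count (a signal, reads divided by size factors) over all libraries, CK and M. They also deposited the fold (a ratio, M over CK), its log2, and a p-value with its adjustment, which is the main test here. Benjamini-Hochberg adjustment over all rows returned the same adjusted values.

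Each group mean is a sum of whole reads times 3 fixed steps, which gave the reads of 3 libraries per group (relative tolerance 6e-15, at most 0.01 expected false solutions). Every mean searched, 84.2% to 89.2% of rows (the most abundant were not), had 1 solution, and the search was tested on simulated data. Depth is the summed group means times the size factor. Solved libraries cannot be matched to labelled samples. As an alternative, limma 3.58.1 (R 4.3.3) (prior variance following the mean) was fitted to log2(level + 1) where the mean was at least 10. Ratios within a library used reads + 1 and exact permutation tests (scipy 1.17.1). Intervals are exact at 95%. The miRNAs named include the 4 members, the 5 nearest in pattern to each member with a mean of at least 10, and miRNAs of the growth lists. Growth miRNAs are named at an unadjusted p below 0.05 in heart and past the adjusted threshold in the exosome table. Not every marker miRNA below an unadjusted p of 0.05 is named. The marker miRNAs named beside their lists were chosen after their values were seen. The members and lists were chosen with earlier results of these data known. Other pseudocounts, filters and scalings were tried, and each library was left out in turn.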

Additional observations from a re-analysis of the deposited data

How the results depend on the processing

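Of 124 alternative values over the 13 results, 122 were counted as unmoved. For the counts of calls this meant the same count, and for the log2 folds a move of less than 1 SD between libraries. For the 4 ratios no SD was used, and all 8 alternatives of each kept their sign. With 3 or fewer libraries a group their exact permutation test cannot pass the threshold, so that test could not have marked a move. For miR-132-5p in the exosome table the SD was 3.28, so folds of opposite sign also counted as unmoved. For miR-132-3p and miR-212-3p there the SDs were 2.60 and 2.63, so large moves counted as unmoved too. With log2(mean + 1) their log2 folds went from -2.85 to -4.82 and from -2.93 to -4.90. No member was called with all libraries, so no called direction could turn. The number of members past an adjusted p of 0.05 in heart was 0 with all libraries and 0 to 1 when each library was left out in turn, the 1 being miR-212-5p without M library 3. In the exosome table it was 0 to 0. The cause was not tested. Leaving out each heart library gave log2 folds of 0.70 to 1.70 for miR-132-3p, 0.36 to 1.03 for miR-132-5p, 1.38 to 2.32 for miR-212-5p and 0.14 to 1.65 for miR-212-3p, with the lowest of each without M library 2. For miR-132-5p in the exosome table the log2 fold of 0.22 became 2.55 without CK library 3 and -2.03 without M library 3, with the group left at 0 set to its floor of 3 reads in each library, and -0.37 without CK library 1 or 2, so its direction turned in 3 of 10 alternatives. The exosome 3p arms have no value without CK library 3, where both groups are at 0. Leaving out each heart library, the difference of the log2 ratio between M and CK was 0.83 to 1.29 for miR-212-5p to miR-132-5p, -1.07 to -0.44 for miR-212-3p to miR-212-5p, 0.24 to 0.82 for miR-132-3p to miR-132-5p and -0.52 to -0.016 for miR-212-3p to miR-132-3p. Scaling to the table total shifts all log2 folds down by 0.17 in heart and 0.13 in the exosome table. The median log2 fold of miRNAs with a mean of at least 10 was 0.0067 in heart and -0.32 in the exosome table. No paired analysis was possible because the deposited columns carry no replicate numbers. Depth limits miR-212-3p most, at 2 to 24 heart reads a library.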
